A study of Arabidopsis thaliana with 48 samples.

Results

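miR825, miR5024-3p and miR1886.1 are 3 of the 428 annotated Arabidopsis thaliana miRNAs in the tables of 21 nt reads. They were chosen by name, for their higher levels among AGO1-bound small RNAs of both atprmt5 mutants than of wild type. Their AGO1-IP values are therefore given as a description with no test, and the 3 are tested in total small RNA alone. The results in total small RNA were also known at the choice, so that test is not independent of it.

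Small RNA was sequenced from closed flower buds of soil-grown, untreated plants in long days. The groups were the mutants atprmt5-2 and atprmt5-6, both in PRMT5, and the wild type Col-0 (WT). Each genotype gave 2 libraries from material pulled down with an antibody to AGO1 (AGO1-IP, replicates 1 and 3) and 2 from the total extracts (replicates 1 and 2), 12 libraries in all, described as biological duplicates. Nothing in the labels describes the lesions of the alleles, and PRMT5 itself cannot be read from small RNA, so the genotypes rest on the labels.

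AGO1 is the main plant Argonaute. It holds a miRNA and cuts or represses mRNAs that pair with it. In plants the pairing runs over most of the miRNA, and mismatches are least tolerated in its 5′ part, which holds the seed (bases 2 to 8). AGO1 mostly binds small RNAs that begin with U. PRMT5 is an arginine methyltransferase that adds symmetric dimethyl groups to proteins, among them proteins of the spliceosome. A miRNA is cut from a hairpin precursor, and usually one strand of the duplex is kept by the Argonaute while the passenger strand is lost.

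The 3 mature sequences and the second product of the MIR1886 hairpin are printed because the results below turn on how they begin and overlap. They were read from the RefSeq annotation of TAIR10.1, 5′ to 3′, with the seed in capitals. The labels name TAIR10 and the tables hold no coordinates, so the names alone tie the values to these sequences.
miR825: uUCUCAAGaaggugcaugaac
miR5024-3p: cCGUAUCUuggccuugucauu
miR1886.1: uGAGAGAAgugagaugaaauc
miR1886.2: uGAGAUGAaaucuuugauugg
miR825 and miR1886.1 begin with U and miR5024-3p begins with C. The 3 seeds differ from each other. No other annotated miRNA had the seed of miR825 or of miR5024-3p, while miR5640 had that of miR1886.1. Each sequence had 1 annotated locus, so none of the values was split over copies.

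The 3 precursors lie in other annotated genes, each on the same strand as its host. In TAIR10.1, miR825 is at chr2:11159774-11159794 on the plus strand, within MIR825 (AT2G26211) and inside an exon of the pseudogene AT2G26220. miR5024-3p is at chr1:16766285-16766305 on the minus strand, within MIR5024 (AT1G07243) and an intron of AAP5 (AT1G44100), which encodes amino acid permease 5. miR1886.1 is at chr2:15611873-15611893 on the plus strand, within MIR1886 (AT2G08855) and the 3′ UTR of AT2G37160, which encodes a WD40 repeat-like protein.

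Values are RPM, the reads of a miRNA per 1000000 of the 21 nt reads of a library. Libraries held 3750509 to 8166912 such reads in AGO1-IP and 571191 to 1397552 in total small RNA, WT total replicate 1 being the shallowest. Annotated miRNAs made up 70.5% to 74.8% of them in AGO1-IP and 23.0% to 32.9% in total small RNA. A floor of 3 reads equals 0.367 to 0.800 RPM in AGO1-IP and 2.15 to 5.25 RPM in total small RNA. The 3 miRNAs were listed in 12 of 12 libraries at 21 nt and at no other read length looked at (22, 23 and 24 nt).

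In AGO1-IP, miR825 had 53.9 and 54.5 RPM in atprmt5-2, 40.4 and 36.3 RPM in atprmt5-6, and 17.9 and 14.3 RPM in WT. Every mutant library was above both WT libraries, and the atprmt5-2 libraries were above those of atprmt5-6. The means were 54.2 ± 0.426 RPM in atprmt5-2, 38.3 ± 2.91 RPM in atprmt5-6 and 16.1 ± 2.52 RPM in WT (SD, n = 2 each). The mean was 3.36 times the WT mean in atprmt5-2 and 2.38 times in atprmt5-6.

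miR5024-3p was the rarest of the 3 miRNAs. In AGO1-IP it had 13.3 and 25.1 RPM in atprmt5-2, 11.9996 and 11.4762 RPM in atprmt5-6, and 3.43 and 3.42 RPM in WT. The mutant libraries were again all above WT, and replicate 3 of atprmt5-2 stood well above the other mutant libraries. The means were 5.604 times the WT mean in atprmt5-2 and 3.42 times in atprmt5-6. These values rest on 220 reads in atprmt5-2, 172 in atprmt5-6 and 49 in WT, summed over 2 libraries each.

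miR1886.1 had 29.1 and 54.8 RPM in the AGO1-IP libraries of atprmt5-2, 33.3 and 40.9 RPM in those of atprmt5-6, and 11.9 and 12.8 RPM in those of WT. No mutant library reached down to WT, while the mutant alleles overlapped each other. The means were 41.9 ± 18.2, 37.1 ± 5.40 and 12.4 ± 0.582 RPM in atprmt5-2, atprmt5-6 and WT (SD, n = 2 each). The means were 3.39 times the WT mean in atprmt5-2 and 3.00 times in atprmt5-6.

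**Figure D1:**
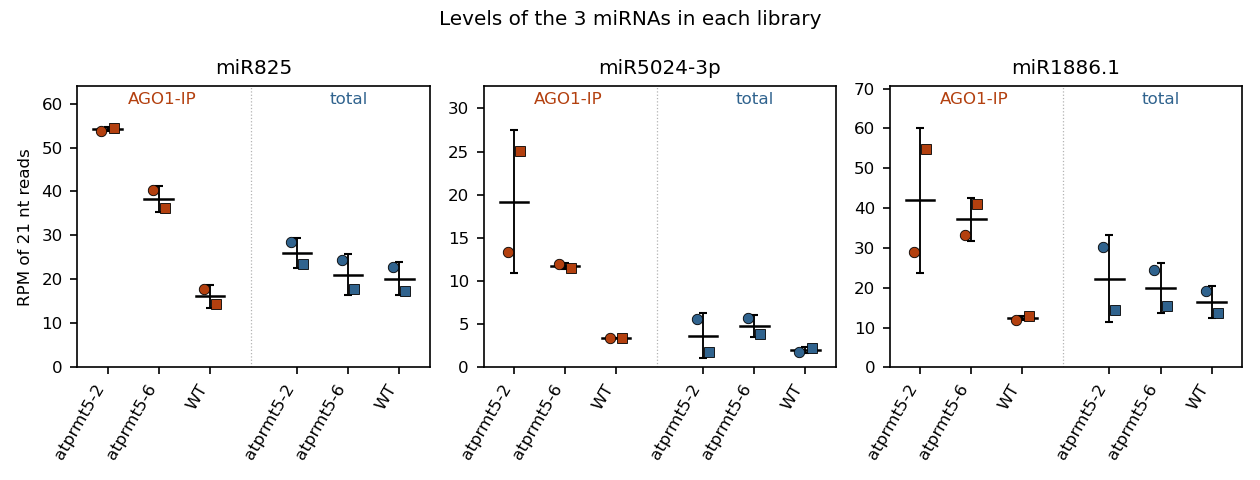
RPM of 21 nt reads of the 3 miRNAs in each library, by genotype, with AGO1-IP at left and total small RNA at right of each panel. Circles are replicate 1 and squares the second replicate, and lines with bars are the mean ± SD of 2 libraries. For all 3 miRNAs the AGO1-IP libraries of both mutants lie above both of WT, whereas in total small RNA the genotypes lie closer together.

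The fit over all tested miRNAs gave the size of these differences with an error pooled over the 12 libraries. It used limma on log2(RPM + 1) of the 128 miRNAs with a mean of at least 5 RPM, a scale that understates the change of low miRNAs. All 3 miRNAs passed that minimum, miR5024-3p only through its mutant AGO1-IP libraries. In AGO1-IP of atprmt5-2 the log2 fold changes over WT were 1.69 (SE 0.28) for miR825, 2.13 (SE 0.44) for miR5024-3p and 1.62 (SE 0.42) for miR1886.1. They ranked 3, 2 and 5 from the top of 128. In AGO1-IP of atprmt5-6 they were 1.21 for miR825, 1.52 for miR5024-3p and 1.51 for miR1886.1, with the same standard errors, and ranked 9, 5 and 6. The median of all 128 was 0.04 in atprmt5-2 and -0.14 in atprmt5-6.

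Every atprmt5-2 AGO1-IP library was above both WT libraries for 3 of 3 miRNAs, against 21.1% of the 128 tested. For atprmt5-6 it was again 3 of 3, against 18% of the 128, and for both alleles together 3 of 3, against 14.8%. Nothing is read from these counts, since this contrast chose the 3 miRNAs. All of the AGO1-IP fold changes were positive under each of 15 other ways of processing, which included leaving out each library. With every mutant library above both WT libraries, leaving out a library could not turn a sign, so nothing is read from that. Without replicate 3 of atprmt5-2 the values in that mutant were 1.69 for miR5024-3p and 1.17 for miR1886.1, and without its replicate 1 they were 2.56 and 2.06. Both mutants were set against the same WT libraries, so the alleles are not independent of each other. In buds, more cells of a type and more of a miRNA per cell cannot be told apart.

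Total small RNA asks whether the pool of each miRNA also differed between the genotypes. miR825 had 28.5 and 23.6 RPM in atprmt5-2, 24.3 and 17.8 RPM in atprmt5-6, and 22.8 and 17.4 RPM in WT. The atprmt5-2 libraries were just above both of WT, and those of atprmt5-6 overlapped WT. The log2 fold change over WT was 0.36 in atprmt5-2 (95% interval -0.25 to 0.98, limma adjusted p = 0.375). In atprmt5-6 it was 0.06 (95% interval -0.55 to 0.67, limma adjusted p = 0.859).

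miR5024-3p had 5.54 and 1.81 RPM in total small RNA of atprmt5-2, 5.72 and 3.88 RPM in that of atprmt5-6, and 1.75 and 2.28 RPM in that of WT. The WT values stand for 1 and 3 reads, at or under the floor, so its pool in WT was barely measured. Reads summed over 2 libraries were 9 in atprmt5-2, 13 in atprmt5-6 and 4 in WT. Pooled, that gives 3.80 RPM (exact Poisson 95% interval 1.74 to 7.22) in atprmt5-2, 4.84 RPM (2.58 to 8.27) in atprmt5-6 and 2.12 RPM (0.577 to 5.42) in WT. These intervals cover counting error only, and they overlap. The log2 fold change was 0.52 in atprmt5-2 (95% interval -0.46 to 1.49, limma adjusted p = 0.436) and 0.93 in atprmt5-6 (95% interval -0.04 to 1.91, limma adjusted p = 0.122). As miR5024-3p was among the tested miRNAs only through its AGO1-IP levels in the mutants, nothing is built on these p-values.

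miR1886.1 had 30.1 and 14.5 RPM in total small RNA of atprmt5-2, 24.3 and 15.5 RPM in that of atprmt5-6, and 19.3 and 13.7 RPM in that of WT. All 3 genotypes overlapped. The log2 fold change was 0.35 in atprmt5-2 (95% interval -0.58 to 1.28, limma adjusted p = 0.543) and 0.25 in atprmt5-6 (95% interval -0.69 to 1.18, limma adjusted p = 0.663).

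None of the 3 miRNAs passed the test in total small RNA in either mutant, where 15.6% of the 128 tested passed in atprmt5-2 and 20.3% in atprmt5-6. For miR5024-3p this carries no weight, as its AGO1-IP levels in the mutants brought it into the test. For all 3, the total results were known when they were chosen, so the lack of a call is not independent of the choice. The calls among the 128 were mostly lower. In atprmt5-2, 4 were higher (3.12%) and 16 lower, and atprmt5-6 had 5 higher (3.91%) and 21 lower. The number of calls rests on WT total replicate 1, without which limma called 3 in atprmt5-2 and 2 in atprmt5-6. Without replicate 1 of atprmt5-2 the calls in that mutant were 34, and without its replicate 2 they were 8, while without replicate 2 of atprmt5-6 those in atprmt5-6 were 9. Both atprmt5-2 libraries were above both WT libraries for 1 of 3 miRNAs (miR825), against 6.25% of the 128. For atprmt5-6 it was 1 of 3 (miR5024-3p), against 8.59%, and for both alleles together 0 of 3, against 5.47%. Against each other, atprmt5-6 and atprmt5-2 had no call among the 128 (0%) by limma, edgeR or DESeq2, with 7 at an unadjusted p under 0.05, and all 3 miRNAs had a limma adjusted p of 0.984. The intervals leave room for a difference in pool, and a p that misses the threshold does not show that the pools were alike.

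The median miRNA was lower in total small RNA of the mutants, whereas the fitted fold changes of the 3 miRNAs were above 0. The smallest of them, that of miR825 in atprmt5-6, was -0.0079 when scaled to annotated miRNA reads. Leaving out 1 library turned 4 of the 6 below 0, to -0.093 for miR5024-3p and -0.15 for miR1886.1 in atprmt5-2, and to -0.15 for miR825 and -0.062 for miR1886.1 in atprmt5-6. In atprmt5-2 this was without its replicate 1. In atprmt5-6 it was also without its replicate 1, and for miR825 without WT replicate 2 as well. Over all 128 tested, the median log2 fold change was -0.44 for atprmt5-2 and -0.67 for atprmt5-6. Relative to that median, the differences in atprmt5-2 were 0.80 for miR825, 0.96 for miR5024-3p and 0.79 for miR1886.1. In atprmt5-6 they were 0.73 for miR825, 1.61 for miR5024-3p and 0.92 for miR1886.1.

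Whether the pools differed thus depended on the scale. With each library centred on its median miRNA, miR825 passed the test in total small RNA of atprmt5-2 (0.90, limma adjusted p = 0.0218) and of atprmt5-6 (0.86, limma adjusted p = 0.0268). On the same scale miR5024-3p (1.73, limma adjusted p = 0.00627) and miR1886.1 (1.04, limma adjusted p = 0.0469) passed in atprmt5-6 alone. The value of miR5024-3p rests on 13 reads in atprmt5-6 and 4 in WT, and it was among the tested miRNAs only through its AGO1-IP levels in the mutants, so nothing is built on its p. That scale turned the calls of all miRNAs to 14 higher and 4 lower for atprmt5-2 and to 20 higher and 2 lower for atprmt5-6. The centred fit pooled its error over both fractions, and the total results were known at the choice. Without centring, the pooled SE of miR825 was 0.28, against 0.39 from total libraries alone. With edgeR on TMM-scaled reads or with DESeq2, which also move to the bulk of the miRNAs, none of the 3 passed in either mutant, with adjusted p between 0.115 and 0.599. Calls over all miRNAs were then 5 higher and 3 lower with TMM and 5 higher and 2 lower with DESeq2 for atprmt5-2, and for atprmt5-6 they were 5 higher and 2 lower with TMM and 5 higher and 6 lower with DESeq2.

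**Figure D2:**
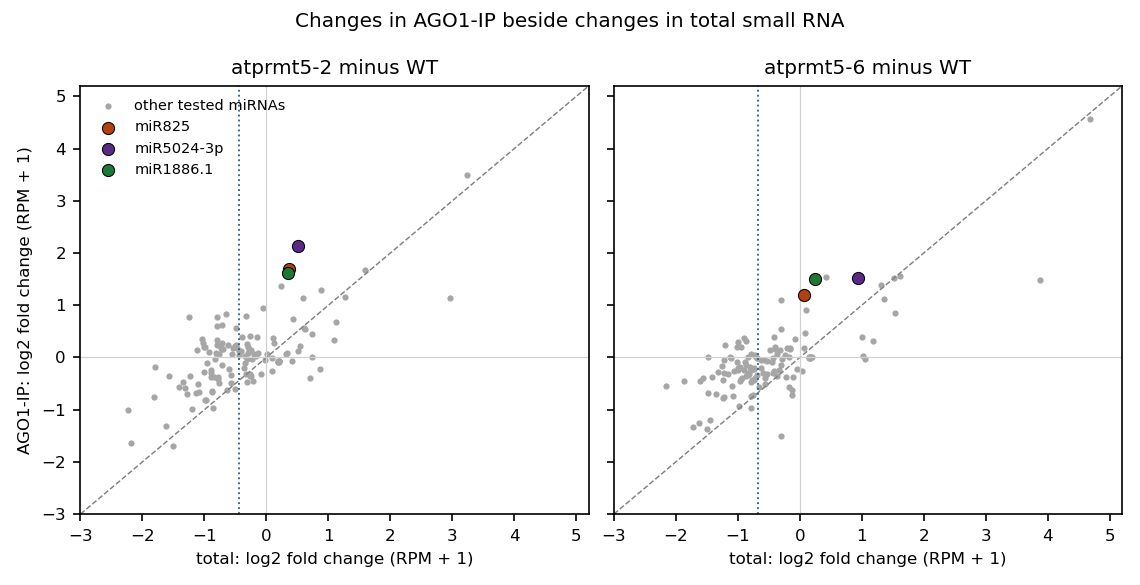
Log2 fold change over WT in AGO1-IP (y axis) against that in total small RNA (x axis), on the log2(RPM + 1) scale, for the 128 tested miRNAs, in atprmt5-2 (left) and atprmt5-6 (right). The dashed line marks equal change and the dotted line the median change in total small RNA, -0.44 in atprmt5-2 and -0.67 in atprmt5-6. The 3 coloured miRNAs lie above the dashed line in both mutants.

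Setting AGO1-IP beside total small RNA of the same genotype gives the enrichment in AGO1, as a log2 difference of AGO1-IP from total. In atprmt5-2 it was 1.03 for miR825, 2.17 for miR5024-3p and 0.90 for miR1886.1. In atprmt5-6 it was 0.85 for miR825, 1.15 for miR5024-3p and 0.89 for miR1886.1. In WT it was -0.30 for miR825, 0.56 for miR5024-3p and -0.37 for miR1886.1. The SE of each of these values was 0.28 for miR825, 0.44 for miR5024-3p and 0.42 for miR1886.1, so the WT values of miR825 and miR1886.1 lay within about 1 SE of 0. For miR1886.1 in atprmt5-2 the AGO1-IP and total libraries overlapped (29.1 against 30.1 RPM in replicate 1), as they did for miR825 in WT (17.9 RPM in AGO1-IP replicate 1 against 17.4 RPM in total replicate 2).

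The median enrichment of the 128 was 0.62 in atprmt5-2, 0.69 in atprmt5-6 and 0.23 in WT. The fitted values of miR825 and miR1886.1 were above the median of their genotype in both mutants and below it in WT, by less than 2 SE. miR5024-3p was above it in all 3 genotypes and had the highest value of all 128 in atprmt5-2, which rests on 9 total reads. The enrichment of the mutant minus that of WT was 1.33 for miR825, 1.61 for miR5024-3p and 1.27 for miR1886.1 in atprmt5-2, with a median of 0.42 over the 128. In atprmt5-6 the same difference was 1.14 for miR825, 0.59 for miR5024-3p and 1.26 for miR1886.1, with a median of 0.46.

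The sign of an enrichment rests on what the reads are divided by, because miRNAs fill a larger part of the reads in AGO1-IP. Scaled to annotated miRNA reads, miR825 was depleted in AGO1-IP of atprmt5-2 (-0.31) and atprmt5-6 (-0.53), and miR1886.1 was too (-0.43 and -0.48). The mutant minus WT differences kept their sign on that scale. Centred on the median miRNA, the difference for miR5024-3p in atprmt5-6 was -0.047. These differences contain the AGO1-IP values that chose the miRNAs, so they are not tested.

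**Figure D3:**
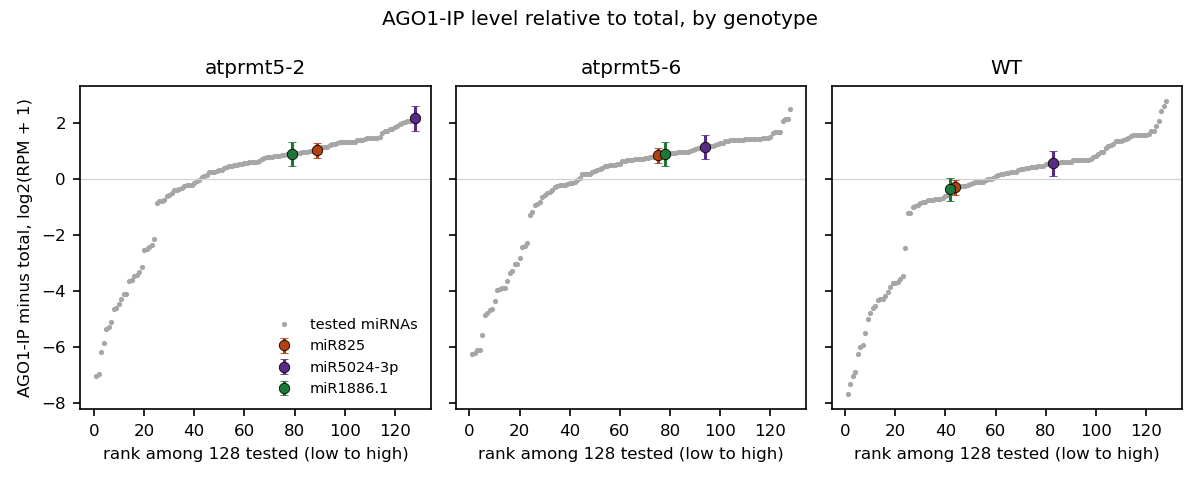
Log2 difference of AGO1-IP from total small RNA, on the log2(RPM + 1) scale, for the 128 tested miRNAs ranked from low to high within atprmt5-2, atprmt5-6 and WT. Bars on the 3 coloured miRNAs are ± 1 SE. miR825 and miR1886.1 are above 0 in both mutants and below 0 in WT, and miR5024-3p is the highest of all in atprmt5-2.

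The MIR1886 hairpin offers a comparison within 1 precursor. miR1886.1 and miR1886.2 come from the same strand, begin 9 nt apart and share 12 nt, as the printed sequences show. miR1886.2 was the more abundant product. In AGO1-IP it had 320.5 and 288 RPM in atprmt5-2, 309.7 and 334 RPM in atprmt5-6, and 238 and 351 RPM in WT. The genotypes overlapped, and its log2 fold change over WT was 0.07 in atprmt5-2 (95% interval -0.83 to 0.97, limma adjusted p = 0.944) and 0.15 in atprmt5-6 (95% interval -0.75 to 1.06, limma adjusted p = 0.990).

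miR1886.2 had 266 and 189.6 RPM in total small RNA of atprmt5-2, 227 and 115 RPM in that of atprmt5-6, and 252 and 129 RPM in that of WT. Replicate 1 was the higher library in every genotype and the genotypes overlapped. The third product, miR1886.3 from the other arm, had no more than 2 reads in any group of libraries.

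Within AGO1-IP, the mutant libraries held a larger part of miR1886.1 beside miR1886.2 than the WT libraries. miR1886.1 made up 8.31% and 16.0% of their reads in AGO1-IP of atprmt5-2, 9.71% and 10.9% in that of atprmt5-6, and 4.78% and 3.51% in that of WT. The lowest mutant share, 8.31%, had an exact 95% binomial interval of 6.88% to 9.94%, and the highest WT share, 4.78%, one of 3.81% to 5.92%. These intervals cover counting error only. In AGO1-IP, those of the atprmt5-2 replicates did not overlap each other, while those within atprmt5-6 and within WT did. The shares in total small RNA were 10.2% and 7.11% in atprmt5-2, 9.69% and 11.8% in atprmt5-6, and 7.10% and 9.57% in WT, with overlapping intervals. How the authors assigned reads that span both products is not given in the sources used here. The shares hold the AGO1-IP values of miR1886.1, so no test was made.

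**Figure D4:**
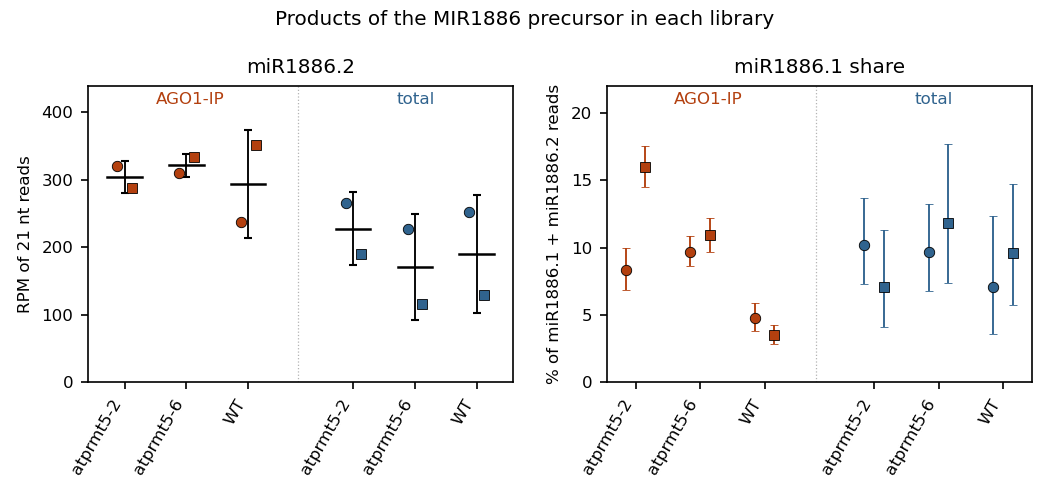
Left, RPM of miR1886.2 in each library with the mean ± SD of 2 libraries. Right, miR1886.1 as a percentage of the reads of miR1886.1 and miR1886.2 in each library, with exact 95% binomial intervals for counting error. Circles are replicate 1 and squares the second replicate. Within AGO1-IP, miR1886.2 overlaps between genotypes, while the miR1886.1 share is 8.31% or more in the mutant libraries and 4.78% or less in WT.

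The other strand of the MIR5024 duplex, miR5024-5p, is annotated at 22 nt, and its 21 nt reads are given here. In AGO1-IP, miR5024-5p summed to 28 reads in atprmt5-2, 17 in atprmt5-6 and 6 in WT. Of the reads of both arms, miR5024-3p held 96.2% and 86.7% in AGO1-IP of atprmt5-2, 89.9% and 92.5% in that of atprmt5-6, and 85.2% and 92.9% in that of WT. The shares of the genotypes overlapped. miR5024-5p had at most 1 read in any total library.

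The profiles of the 3 miRNAs over the 12 libraries were close to each other, which follows in part from their choice for a shared pattern. After the mean of each fraction was subtracted, Pearson's r of log2(RPM + 1) was 0.91 between miR5024-3p and miR1886.1, 0.88 between miR825 and miR1886.1, and 0.84 between miR825 and miR5024-3p (n = 12 libraries). Between miR1886.1 and miR1886.2, which was not chosen for that pattern, r was 0.40. These points share libraries and depth, and the values are a description.

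For each of the 3, the other 2 were its nearest profiles among the tested miRNAs. Their choice for a shared pattern in AGO1-IP favours this, so nothing is read from that order. The next nearest to miR825 was miR391-5p (r = 0.77), which averaged 145 RPM in AGO1-IP of atprmt5-2, 123 RPM in that of atprmt5-6 and 63.4 RPM in that of WT. The next nearest to miR5024-3p was miR843 (r = 0.78). It averaged 69.6 RPM in AGO1-IP of atprmt5-2, 136 RPM in that of atprmt5-6 and 4.74 RPM in that of WT. It also averaged 42.9 RPM in total small RNA of atprmt5-2 and 96.3 RPM in that of atprmt5-6, against 2.77 RPM in WT. The next nearest to miR1886.1 was miR403-5p (r = 0.74), the strand opposite the miRNA that guides cutting of AGO2 mRNA. It averaged 0.56 RPM in AGO1-IP of atprmt5-2, 0.77 RPM in that of atprmt5-6 and 0.21 RPM in that of WT, near or under the floor of 3 reads. In total small RNA it averaged 19.0, 13.7 and 16.8 RPM in the same order. Which fraction its r rests on was not tested.

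miR825 belongs to the miRNAs described in plant responses to bacteria, so other families with such a role (miR160, miR393, miR398, miR400, miR472, miR773, miR844, miR858 and miR863) were counted beside it. Of their 27 annotated names 13 were tested, with 9 distinct sequences. In each mutant 0 rose and 2 fell in total small RNA, where of all 128 tested 16 fell in atprmt5-2 and 21 in atprmt5-6. The median log2 fold change of the 13 there was -0.80 for atprmt5-2 and -0.73 for atprmt5-6, beside -0.44 and -0.67 for all 128. The count is thus near that of all miRNAs tested. Those that fell were miR858a and miR858b, which target MYB factors of phenylpropanoid metabolism. miR858a fell by 1.50 in atprmt5-2 (limma adjusted p = 0.0234) and by 1.63 in atprmt5-6 (limma adjusted p = 0.0110), and miR858b fell by 2.18 (limma adjusted p = 0.00168) and 1.72 (limma adjusted p = 0.00602) in the same mutants. The 2 sequences are nearly alike, so reads may be shared between them. Without WT total replicate 1, miR858b in atprmt5-2 alone still passed, and centring on the median miRNA had the same outcome. In AGO1-IP the median of the 13 was 0.35 in atprmt5-2 and -0.26 in atprmt5-6, and 0 of 13 had a log2 fold change over 1 in either mutant. Of all 128 tested, 10 were over 1 in atprmt5-2 and 11 in atprmt5-6. With so few expected among 13, nothing is read from that count.

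All 3 miRNAs carry high numbers, given to miRNAs found late and mostly in Arabidopsis or its near relatives. Of the 245 annotated names numbered 770 or above, leaving out the widely shared miR827, miR828, miR858 and miR2111, 41 were tested, the 3 miRNAs among them. In each mutant 2 of them rose and 9 fell in total small RNA, at a median log2 fold change of -0.79 for atprmt5-2 and -0.76 for atprmt5-6. Of all 128, 4 rose and 16 fell in atprmt5-2, and 5 rose with 21 falling in atprmt5-6. In AGO1-IP their median was -0.31 in atprmt5-2 and -0.27 in atprmt5-6, and 5 of 41 had a log2 fold change over 1 in each mutant, beside 10 of 128 in atprmt5-2 and 11 of 128 in atprmt5-6. The 3 miRNAs are among those 5 because they were chosen for that change.

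Among the 89 tested miRNAs that begin with U, to which miR825 and miR1886.1 belong, the median log2 fold change in AGO1-IP was -0.06 for atprmt5-2 and -0.20 for atprmt5-6. Of the 89, limma called 3 higher and 14 lower in total small RNA of atprmt5-2, and for atprmt5-6 it called 4 higher and 12 lower. Of all 128, which include the 89, it called 4 higher and 16 lower for atprmt5-2 and 5 higher and 21 lower for atprmt5-6. In AGO1-IP, 4 of the 89 had a log2 fold change over 1 in atprmt5-2 and 3 in atprmt5-6. Those include miR825 and miR1886.1, which were chosen for that change. Of all 128, 10 were over 1 in atprmt5-2 and 11 in atprmt5-6. The lists were not tested against each other.

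Sequences that could pair with the 3 miRNAs were sought in the annotated mRNAs of TAIR10.1, 31342 in number with the longest per locus, allowing a penalty of up to 3 (1 for a mismatch, 0.5 for a G:U pair, doubled opposite bases 2 to 13). miR825 and miR5024-3p had 0 such matches. miR1886.1 had 3, one of which is the opposite arm of its own precursor in AT2G37160. The best was in the coding sequence of AT4G18320, an uncharacterised protein, at chr4:10125018-10125038 on the plus strand, with a penalty of 2. The other was in the 3′ UTR of AT5G65240, which encodes a leucine-rich repeat protein kinase family protein, with a penalty of 3. They are printed 5′ to 3′ with unpaired or G:U positions in capitals, to be read against the reverse of miR1886.1.
AT4G18320: gCuCucaucucacuucucuca
AT5G65240: gaGuuGaucucacuucucucC
A match of this kind is a description of letters and not a shown target, and no mRNA was measured in these libraries.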

How the data were processed

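The authors deposited 1 table per library and read length, 48 in all, with RPM values for 428 annotated miRNAs. Bowtie2, Trimmomatic 0.36, SAMtools 1.9 and the TAIR10 build are named in the submitters' processing notes, without their roles or the mismatches allowed. At 21 nt, 100% of the 2629 listed values came out as whole reads (tolerance 0.01 reads), and read numbers and the number of 21 nt reads were recovered. A missing value was taken as 0. The 23 nt table of WT total replicate 1 repeated its 21 nt table for all 195 listed miRNAs and was not used.

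The 21 nt RPM were tested as log2(RPM + 1) with limma 3.58.1 (R 4.3.3), in 1 fit of 12 libraries and 6 groups with an intensity trend, 6 residual degrees of freedom and no block. It held the 128 miRNAs with a mean of at least 5 RPM, of 97 distinct sequences. A call is a Benjamini-Hochberg adjusted p under 0.05 over all 128, and 95% intervals are unadjusted. The pooled error assumes that AGO1-IP and total libraries vary alike, which did not hold for the 3 miRNAs. Fitted by fraction, the SEs of miR825, miR5024-3p and miR1886.1 were 0.39, 0.53 and 0.48 in total small RNA. In AGO1-IP they were 0.20, 0.31 and 0.34. The pooled errors are thus smaller than those of the total libraries alone, which gave 5 calls in atprmt5-2 and 3 in atprmt5-6. Because recovered reads allow a count test, edgeR 4.0.16 and DESeq2 1.42.0 were run as alternatives, with and without rescaling. In total small RNA edgeR without rescaling called 15 miRNAs in atprmt5-2 and 23 in atprmt5-6. Chi-square tests of the 2 libraries of a group gave 33.3 to 505 per degree of freedom, above sampling noise, so each library was counted as 1 sample. Whether total and AGO1-IP libraries came from the same plants is not given sample by sample in the sources used here, and p-values measure the spread between these libraries.

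miRNA sequences and positions were taken from the RefSeq annotation of TAIR10.1 by name, and 427 of 428 names matched. Named miRNAs were the 3 chosen, other products of their precursors, the 3 tested miRNAs of highest correlation with each, and any miRNA of the bacterial response list called in total small RNA. The members, the lists and the tests were chosen with earlier results of these data known, those in total small RNA included, so the absence of a call there is not independent of the choice.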

Additional observations from a re-analysis of the deposited data

How the results depend on the processing

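The AGO1-IP fold changes of the 3 miRNAs over WT kept their sign in all settings, left-out libraries included. For left-out libraries this was fixed beforehand, as every mutant library was above both WT libraries. The fold change of miR5024-3p moved most. In atprmt5-2 it ran from 1.48 with a pseudocount of 5 to 2.56 without AGO1-IP replicate 1 of that mutant, and was 2.55 with DESeq2. In atprmt5-6 it ran from 0.99 with a pseudocount of 5 to 1.92 with DESeq2, through 1.57 (21 and 22 nt summed), 1.62 (per annotated miRNA read), 1.64 (pseudocount 0.5), 1.68 (centred on the median miRNA), 1.77 (edgeR) and 1.86 (edgeR with TMM). A pseudocount of 5 also gave 1.27 for miR1886.1 in atprmt5-6. Depth limits miR5024-3p in total small RNA, with 9, 13 and 4 reads in atprmt5-2, atprmt5-6 and WT. Causes of these shifts were not tested.

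In total small RNA, centring on the median miRNA brought miR825 past the threshold in atprmt5-2 (0.90) and atprmt5-6 (0.86), and miR1886.1 in atprmt5-6 (1.04). miR5024-3p also passed in atprmt5-6 (1.73). It was among the tested miRNAs only through its AGO1-IP levels in the mutants, so nothing is built on that. Centring also turned atprmt5-6 minus atprmt5-2 for miR1886.1 to 0.15 and atprmt5-6 minus WT for miR1886.2 to 0.64. The latter was 0.47 with TMM and 0.40 with DESeq2. Per annotated miRNA read, miR825 was at -0.0079 in atprmt5-6. The number of calls in atprmt5-2 was 32 with no filter, 38 per annotated miRNA read, 8 with TMM (5 higher, 3 lower), 7 with DESeq2 (5 higher, 2 lower) and 5 with total libraries alone (2 higher, 3 lower). In atprmt5-6 it was 51 per annotated miRNA read, 7 with TMM (5 higher, 2 lower), 11 with DESeq2 (5 higher, 6 lower) and 3 with total libraries alone. Between the alleles it was 1 with a pseudocount of 0.5, per annotated miRNA read, centred, without the trend or with identical sequences summed, and 2 with no filter.

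Leaving out 1 library gave 3 to 34 calls in atprmt5-2, 2 to 31 in atprmt5-6 and 0 to 0 between the alleles. In atprmt5-2 minus WT, miR825 ranged over 0.18 to 0.55, miR5024-3p over -0.093 to 1.12, miR1886.1 over -0.15 to 0.85 and miR1886.2 over -0.17 to 0.80. In atprmt5-6 minus WT the ranges were -0.15 to 0.27, 0.70 to 1.16, -0.062 to 0.56 and -0.64 to 0.33 in the same order. In atprmt5-6 minus atprmt5-2 they were -0.52 to -0.09 for miR825, -0.19 to 1.02 for miR5024-3p, -0.60 to 0.40 for miR1886.1 and -0.95 to 0.014 for miR1886.2. In AGO1-IP miR1886.2 ranged over -0.21 to 0.35 in atprmt5-2 and -0.13 to 0.43 in atprmt5-6. None of these passed the threshold.

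The enrichment of AGO1-IP over total depended on scale. Per annotated miRNA read it was -0.31, 1.08 and -0.43 for miR825, miR5024-3p and miR1886.1 in atprmt5-2, -0.53, -0.092 and -0.48 in atprmt5-6, and -1.79, -0.64 and -1.86 in WT. With TMM it was 0.15 for miR825 and 0.089 for miR1886.1 in atprmt5-2, -0.0056, 0.42 and 0.029 for the 3 in atprmt5-6, and -0.68, 0.28 and -0.76 in WT. With DESeq2 it was 0.26 for miR825 and 0.13 for miR1886.1 in atprmt5-2, 0.11, 0.54 and 0.14 for the 3 in atprmt5-6, and -0.68, 0.28 and -0.76 in WT. Centred, it was 0.31, 1.17 and 0.24 in WT. With 21 and 22 nt summed it was 1.53 for miR825 in atprmt5-2, 1.35, 1.54 and 1.39 for the 3 in atprmt5-6, and 0.21, 0.82 and 0.13 in WT. With a pseudocount of 5, miR5024-3p had 0.78 in atprmt5-6 and 0.27 in WT. Leaving out 1 library gave 0.40 to 1.40 for miR1886.1 and 1.56 to 2.78 for miR5024-3p in atprmt5-2, 0.58 to 1.201 for miR1886.1 in atprmt5-6, and in WT -0.48 to -0.11 for miR825 and -0.60 to -0.13 for miR1886.1.

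The mutant minus WT difference in enrichment changed sign in 1 case. Centred, it was 0.84 for miR825 in atprmt5-2, and 0.51, -0.047 and 0.62 for miR825, miR5024-3p and miR1886.1 in atprmt5-6. With TMM it was 0.84 for miR825 in atprmt5-2, and 0.68 for miR825 and 0.14 for miR5024-3p in atprmt5-6. With DESeq2 it was 0.94 for miR825 in atprmt5-2 and 0.26 for miR5024-3p in atprmt5-6. Leaving out 1 library gave 1.15 to 1.51, 1.00 to 2.22 and 0.77 to 1.77 for miR825, miR5024-3p and miR1886.1 in atprmt5-2, and 0.93 to 1.36, 0.36 to 0.82 and 0.95 to 1.57 in atprmt5-6.

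A replicate block gave 33 calls in atprmt5-2 and 67 in atprmt5-6, and called none of the 3 miRNAs. The block joins libraries by number, and in total small RNA their deviations paired between the mutants (r = 0.63) but not between atprmt5-2 and WT (-0.10) or atprmt5-6 and WT (-0.07), while AGO1-IP gave 0.64, 0.23 and 0.35 in the same order. With the WT total numbers crossed, an alternative chosen after seeing the data, the calls were 32 in atprmt5-2 and 38 in atprmt5-6.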

Other observations

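miR5024-3p was 1 of 13 tested miRNAs that begin with C, 9 of them distinct sequences, a list looked at after its values had been seen. Their median log2 fold change in AGO1-IP was 0.82 in atprmt5-2 and 1.09 in atprmt5-6, where the median of all 128 tested was 0.04 and -0.14. In total small RNA their median was 0.23 in atprmt5-2 and -0.05 in atprmt5-6. Limma calls among the 13 numbered 1 for atprmt5-2 and 3 for atprmt5-6, all of them lower. Of the 128 tested, 20 had a call for atprmt5-2 (16 lower) and 26 for atprmt5-6 (21 lower). Among only 13 miRNAs such counts of calls are too small to set the group apart, and nothing is read from them. In AGO1-IP, 5 of the 13 had a log2 fold change over 1 in atprmt5-2 and 7 in atprmt5-6, miR5024-3p among them in both. Of all 128 tested, 10 were over 1 in atprmt5-2 and 11 in atprmt5-6. This difference was not tested. In WT the median difference of AGO1-IP from total was -0.83 over the 13, and miR5024-3p, at 0.56, was the highest of them.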
